A study of Mus musculus with 4 samples.

Results

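The 4 Hox clusters of the mouse were examined in ATAC-Seq data from immortalized mouse embryonic fibroblasts (imMEFs) with and without the histone acetyltransferase HAT1. Accessible sites were taken as Hox sites when they overlapped the body of a Hox gene or lay within 5 kb of one of its annotated transcription start sites (TSSs, GENCODE, mm10). Of the 82325 sites in the table, 71 met this rule, 23 in HoxA, 16 in HoxB, 18 in HoxC and 14 in HoxD. They covered 37 of the 38 Hox genes examined, and Hoxb1 had no site.

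ATAC-Seq uses the Tn5 transposase to insert sequencing adapters into open chromatin, so that the reads over a site follow its accessibility. The study asked how loss of HAT1, the enzyme that acetylates newly made histone H4, changes chromatin accessibility. There were 4 libraries from 4 imMEF lines of C57bl6 background, 2 lines with the HAT1 WT genotype (HAT1+/+, WT) and 2 with HAT1 KO (HAT1−/−, KO). Every line was derived from a mid-gestation embryo with internal organs removed, transformed with the SV40 T antigen and passaged in DMEM with fetal bovine serum, so each library stands for 1 line and all lines carry T antigen. Nothing states whether a line is 1 clone, and the replicate numbers only name the lines. With 2 lines per genotype, p-values measure the spread between these lines. A site that is open in fewer cells and a site that is less open in each cell cannot be told apart in such bulk libraries.

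Hox genes encode homeodomain transcription factors that give cells their position along the body and limb axes. The genes of a cluster lie in the order in which they are used, from anterior paralogs at the 3′ end to posterior paralogs at the 5′ end, and they are switched on and released from Polycomb repression in that order. Genes of the same number in different clusters are paralogs. Fibroblasts keep in culture much of the Hox pattern of the body region they came from.

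Values are the deposited normalized counts, that is, reads per site divided by a factor for each library, and levels compared between sites are given per kb of site. The pattern of whole numbers in the values gave an approximate depth of 9421000 (replicate 1) and 11400000 (replicate 2) reads in sites in WT, against 7834000 and 5659000 in KO, so that counting error was larger in KO. All 9 fibroblast markers, Col1a1 and Prrx1 among them, had a site at a TSS, with summed values of 2087 to 2575 normalized counts per library. No site was found at a TSS of the 3 blood or the 3 muscle markers. A TSS site was present for 3 of 4 epithelial markers (sums of 112 to 196), 4 of 4 endothelial markers (226 to 349) and 3 of 3 neural markers (509 to 696). These sums cover different numbers of genes and cannot be compared between lists. Median levels at the TSS sites were 197 normalized counts per kb for fibroblast, 102.5 for epithelial, 112 for endothelial and 230 for neural markers. The part of these genes in the Hox values was not tested.

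Sequence stretches from 6 sites are shown here because they carry motif letters and stand for the groups of sites described below. Capitals mark the motif letters, all sequences are on the plus strand of mm10 (GRCm38), and each is part of an accessible site. The first 3 come from Hoxd12 and Hoxd11, the block of HoxD where values were higher in KO, at chr2:74672814-74673113 (AP-1 letters, intergenic), chr2:74679357-74679556 (AP-1 letters, promoter) and chr2:74682116-74682322 (HOX-PBX letters, promoter). The others are a site in the Hoxa3 gene body, 6352 bp from its nearest TSS and within 1 kb of the start of another transcript, chr6:52177122-52177421 (CTCF core), an intergenic site beside Hoxb8, chr11:96278755-96279054 (CTCF core), and an intronic site of Hoxc6, chr15:103002206-103002505 (AP-1 letters).
Hoxd12 intergenic: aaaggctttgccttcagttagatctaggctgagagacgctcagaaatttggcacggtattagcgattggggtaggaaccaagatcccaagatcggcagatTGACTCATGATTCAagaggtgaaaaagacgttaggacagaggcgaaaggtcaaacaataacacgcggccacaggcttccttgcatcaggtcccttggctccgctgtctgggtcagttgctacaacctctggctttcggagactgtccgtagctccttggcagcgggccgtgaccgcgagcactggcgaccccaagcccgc
Hoxd11 promoter, site 1: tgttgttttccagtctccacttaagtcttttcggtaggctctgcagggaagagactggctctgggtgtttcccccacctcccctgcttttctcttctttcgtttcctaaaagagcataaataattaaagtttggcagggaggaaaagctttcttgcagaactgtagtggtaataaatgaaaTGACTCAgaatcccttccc
Hoxd11 promoter, site 2: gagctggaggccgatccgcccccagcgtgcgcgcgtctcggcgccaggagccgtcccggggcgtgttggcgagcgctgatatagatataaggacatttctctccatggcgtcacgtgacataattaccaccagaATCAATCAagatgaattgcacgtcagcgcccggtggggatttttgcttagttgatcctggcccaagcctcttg
Hoxa3 body: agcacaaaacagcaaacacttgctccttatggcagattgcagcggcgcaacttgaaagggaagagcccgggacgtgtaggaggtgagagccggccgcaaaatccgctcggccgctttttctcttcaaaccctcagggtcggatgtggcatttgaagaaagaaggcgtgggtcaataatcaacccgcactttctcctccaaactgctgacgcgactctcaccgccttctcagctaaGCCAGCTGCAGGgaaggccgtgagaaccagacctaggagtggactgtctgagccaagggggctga
Hoxb8 intergenic: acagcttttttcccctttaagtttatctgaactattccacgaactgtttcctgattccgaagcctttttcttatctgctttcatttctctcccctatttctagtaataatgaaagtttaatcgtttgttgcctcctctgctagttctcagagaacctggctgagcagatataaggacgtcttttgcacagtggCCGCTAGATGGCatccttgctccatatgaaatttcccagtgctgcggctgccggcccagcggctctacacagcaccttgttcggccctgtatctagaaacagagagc
Hoxc6 intron: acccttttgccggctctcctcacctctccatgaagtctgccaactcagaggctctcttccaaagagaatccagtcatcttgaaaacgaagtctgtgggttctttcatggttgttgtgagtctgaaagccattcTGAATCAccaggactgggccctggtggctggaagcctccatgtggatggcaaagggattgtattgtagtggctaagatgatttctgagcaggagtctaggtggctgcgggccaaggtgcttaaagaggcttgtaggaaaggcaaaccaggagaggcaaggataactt

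The 250 bases upstream of Hoxa5 and Hoxd9 are shown because these genes had the lowest log2 fold changes among well-covered Hox sites, those whose mean over the 4 libraries reached the all-site median of 52 normalized counts. They come from RefSeq (GRCm38.p6), whose promoter table held 22 of the 38 genes, and run in the direction of transcription, at chr6:52204588-52204837 (minus strand) and chr2:74697513-74697762 (plus strand). Of these bases, 133 and 206 lie in the accessible site, and neither stretch held the letters of the 3 motifs searched.
Hoxa5 upstream: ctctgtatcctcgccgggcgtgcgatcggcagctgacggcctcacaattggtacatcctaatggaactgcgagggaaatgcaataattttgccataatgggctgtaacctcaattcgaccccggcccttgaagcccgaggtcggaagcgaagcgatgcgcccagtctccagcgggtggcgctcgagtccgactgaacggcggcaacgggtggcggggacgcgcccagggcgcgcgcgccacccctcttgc
Hoxd9 upstream: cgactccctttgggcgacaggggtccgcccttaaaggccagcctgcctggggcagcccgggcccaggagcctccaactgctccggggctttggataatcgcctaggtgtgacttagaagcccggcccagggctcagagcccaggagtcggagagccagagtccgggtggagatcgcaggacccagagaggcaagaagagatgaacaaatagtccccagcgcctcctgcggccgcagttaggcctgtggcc

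Hox sites were mostly promoters rich in CpG. Of the 71 sites, 52 lay within 1 kb of an annotated TSS, 10 in introns, 4 in exons and 5 between genes. Of the 52, which are called promoter sites here, 44 were within 1 kb of a Hox TSS and 8 of the start of another transcript. The 71 Hox sites had a median GC content of 58.3% and a median CpG density of 5.79 per 100 bp, against 48.1% and 1.28 over all sites. Over all promoter sites of the table these medians were 58.7% and 5.50, close to those of Hox sites. Of all sites, 25.5% were promoter sites, and the rule for Hox sites itself favours sites near a TSS. The median Hox site was 431 bp long with a mean value of 59.3 normalized counts, close to the 440 bp and 52 normalized counts over all sites. Promoter sites as a whole were more accessible, with a median of 209 normalized counts per kb against 154 for the 52 Hox promoter sites.

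The motif letters were sought on both strands in the central 300 bp of each site. The AP-1 letters TGANTCA, bound by Fos and Jun factors, were found at 5 of 71 Hox sites (7.04%), against 37.7% of all sites and 15.5% of promoter sites. The HOX-PBX letters TGATTNAT, which Hox proteins bind together with PBX cofactors, were found at 7 Hox sites (9.86%), against 7.21% of all sites and 2.55% of promoter sites. The core letters of the CTCF motif, CTCF being an insulator protein, were found at 8 Hox sites (11.3%), against 13.3% and 14.9%. They were found in 3 sites each of HoxA and HoxD, 2 of HoxB and 0 of HoxC. AP-1 letters with T in the middle, when followed by another T, also match the HOX-PBX letters, and 1 site near Hoxa3 held both. These shares are descriptions and were not tested.

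The clusters differed in their level of accessibility. In WT replicate 1, WT replicate 2, KO replicate 1 and KO replicate 2, in that order, HoxA sites had 235, 197, 232 and 251 normalized counts per kb. HoxD sites had 198, 168, 210 and 240 in the same order. HoxB sites had 130, 122, 112 and 107, and HoxC sites had 113, 118, 55.8 and 119. Both HoxA and HoxD stood above HoxB and HoxC in every library, and the lowest cluster value of all was that of HoxC in KO replicate 1. HoxA was above HoxD within each library, although their ranges over libraries overlapped, and HoxB and HoxC changed places between libraries. The plot of accessibility by cluster and paralog group gives the level of each gene's sites.

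**Figure D1:**
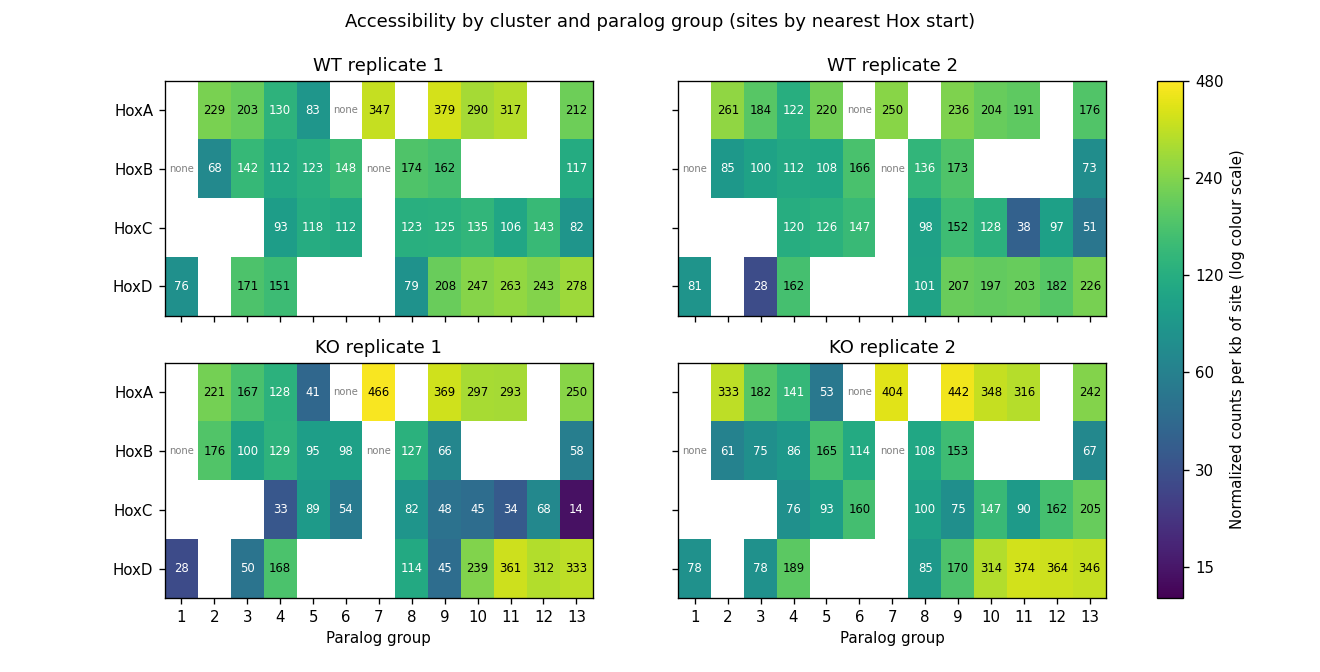
Accessibility of Hox sites by cluster (rows) and paralog group (columns) in each library, in normalized counts per kb of site on a logarithmic colour scale, with each site assigned to the Hox gene with the nearest TSS. White cells hold no gene examined, "none" marks a gene that was nearest to no site, and Hoxa7 is among the brightest cells in each library, whereas the brightest cell of WT replicate 2 is Hoxa2.

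No Hox site passed the rule for differential accessibility between KO and WT. That rule was an unadjusted limma p under 0.01 with a log2 fold change of 1 or more in either direction, and it called 0 Hox sites in either direction, against 0.373% of all sites (0.302% lower and 0.0705% higher in KO). At an unadjusted p under 0.05, 8 Hox sites differed, 4 lower and 4 higher in KO, against 3.13% of all sites (1.59% lower and 1.54% higher). The lower sites were at Hoxa3, Hoxa5, Hoxc4 and Hoxc9 and the higher sites at Hoxa7, Hoxd11, Hoxd12 and Hoxd13. No site of the table had an adjusted p under 0.05 (limma, Benjamini-Hochberg). Without the intensity trend of limma, 1 Hox site was called lower, at Hoxc4. The share of all sites called in that setting is not given here. Hox sites had a median log2 fold change of −0.17, against 0.0062 over all sites, and 42 of 71 lay below 0, against 49.3% of all sites. This median depended on low sites and on 1 line: it was 0.20 among well-covered sites, and 0.12 without KO replicate 1.

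Values of the genotypes did not overlap at 31 sites, with KO lower at 18 (25.4%) and KO higher at 13 (18.3%). Over all sites these shares were 14.3% and 14.6%. The directions were divided by cluster: KO was lower without overlap at 6 HoxB and 6 HoxC sites and higher at none of either, while in HoxD KO was higher at 8 sites and lower at 1. In HoxA there were 5 of each. Median log2 fold changes were 0.23 for HoxA, −0.30 for HoxB, −0.57 for HoxC and 0.36 for HoxD. Sites of a cluster are neighbours in the same libraries and are not independent. Exact permutation tests (two-sided) on the summed values of the clusters gave p = 0.667 for HoxA, p = 0.333 for HoxB, p = 1 for HoxC and p = 0.333 for HoxD, where 0.333 is the smallest p that 2 against 2 allows.

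**Figure D2:**
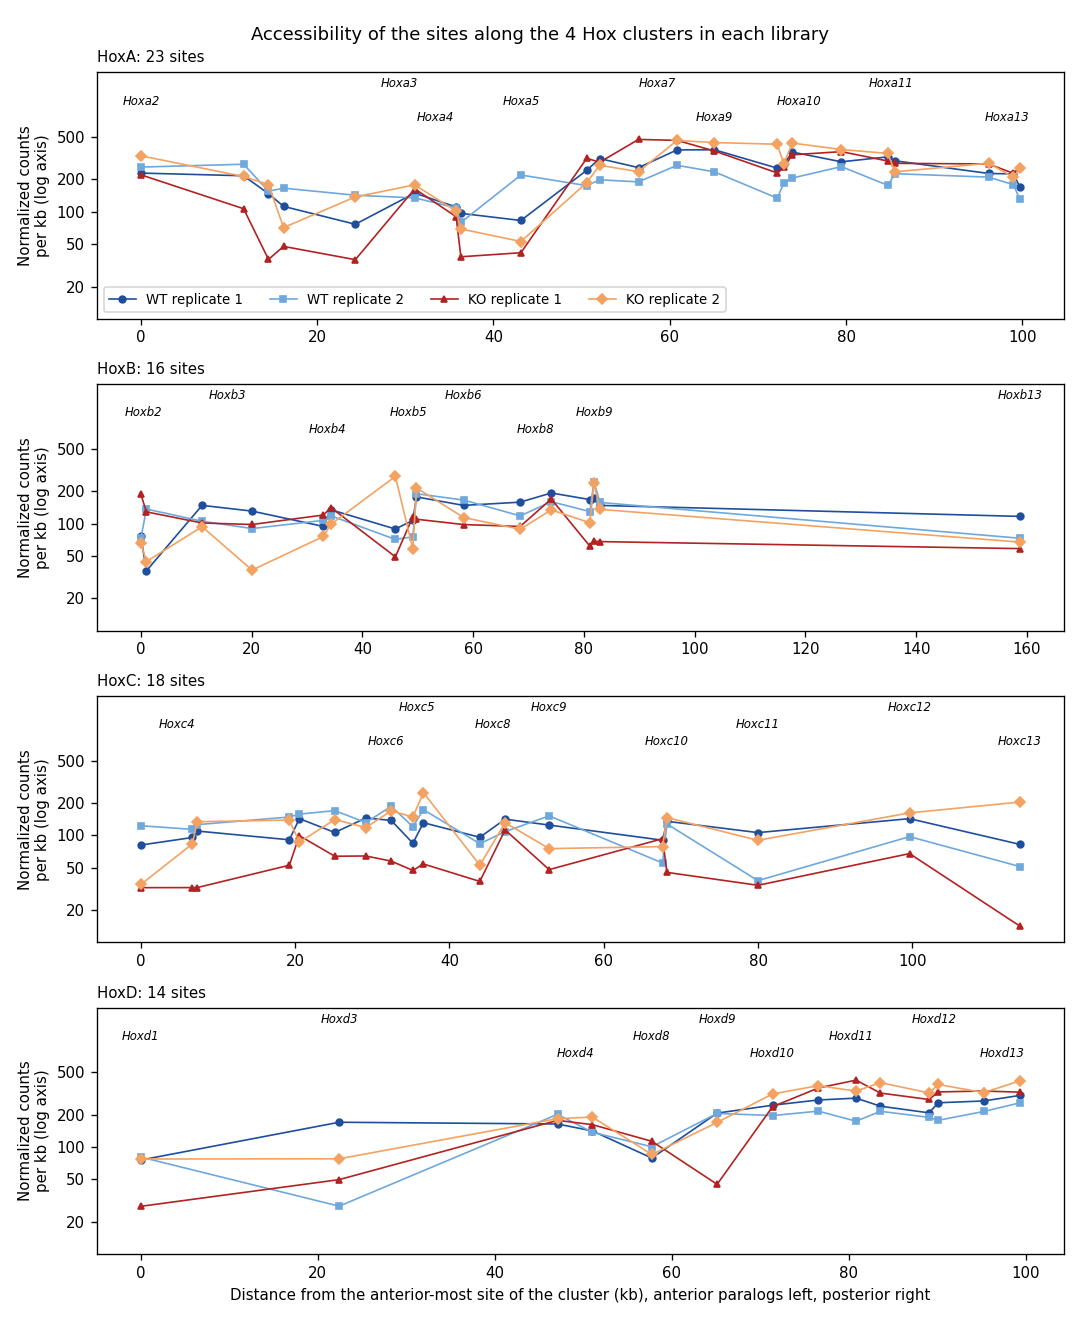
Normalized counts per kb (logarithmic axis) of each Hox site along the 4 clusters, against the distance in kb from the anterior-most site of each cluster, with a line for each of the 4 libraries. Gene names stand above the mean position of the sites assigned to each gene. KO replicate 1 is the lowest library at 15 of 18 HoxC sites, and both KO libraries lie above both WT libraries at 7 of the 8 sites from Hoxd10 to Hoxd13.

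HoxD showed a step in accessibility within the cluster. The 8 sites from Hoxd10 to Hoxd13, genes that pattern the limbs and digits, had 263, 208, 321 and 351 normalized counts per kb in WT replicates 1 and 2 and KO replicates 1 and 2. The 6 sites from Hoxd1 to Hoxd9 had 130, 126, 97.4 and 126 in the same order. The posterior block was thus the higher in each library, and its KO values were above its WT values. The ratio of the posterior to the anterior block was 2.02 and 1.65 in WT and 3.29 and 2.78 in KO (exact permutation test, two-sided, p = 0.333, the smallest the design allows). The boundary of this block was chosen after its values were seen.

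All 8 sites from Hoxd10 to Hoxd13 had a log2 fold change above 0, with a median of 0.58 and a range of 0.31 to 0.74. KO values were above WT values without overlap at 7 of them, the Hoxd10 site being the exception. WT replicate 2 was the lowest library at all 8. The median was 0.39 without WT replicate 2 and 0.48 to 0.68 with another library left out. The count of 8 held with each of the 4 libraries left out in turn. At the 7 sites without overlap the sign could not change in this way, so only the Hoxd10 site was open to change. The unadjusted p was under 0.05 at 3 of the 8 sites. This count was 0 under quantile normalization, without WT replicate 2 or without KO replicate 2, and 1 without KO replicate 1.

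Hoxd13 is the gene at the posterior end of HoxD, needed for digit formation. Its promoter site, chr2:74667124-74668551, overlapped the TSS and had 386, 308, 478 and 462 normalized counts in WT replicates 1 and 2 and KO replicates 1 and 2. It had the highest values of all Hox sites, and both KO lines were above both WT lines. KO exceeded WT by 0.45 on the log2 scale (SE 0.15, limma adjusted p = 1).

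Hoxd12 had an intergenic site, chr2:74672700-74673226, 1787 bp from its TSS, whose AP-1 letters are printed above. It had 137, 94, 173 and 203 normalized counts, with both KO values above both WT values. The log2 fold change was 0.72 (SE 0.28, limma adjusted p = 1). Means were 116 ± 30.4 in WT and 188 ± 21.2 in KO (SD, n = 2).

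Hoxd11, which acts in the forearm and kidney, had 3 sites. The first, chr2:74679227-74679785 at an annotated TSS, had 135, 121, 179 and 224 normalized counts. Its log2 fold change was 0.64 (SE 0.23, limma adjusted p = 1). The second, chr2:74682074-74682456, also at a TSS, had 110, 67, 162 and 128 normalized counts with a log2 fold change of 0.74 (SE 0.33, limma adjusted p = 1). The genotypes did not overlap at either site. The gap was the wider at the first, where WT lines lay close together.

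Hoxd10, the last gene of the block, had 190, 152, 184 and 242 normalized counts at its promoter, chr2:74691310-74692079. KO replicate 1 lay between the WT lines there. Its log2 fold change was 0.31 (SE 0.24).

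Hoxd9, the gene next to the block, stood in contrast. Its promoter site, chr2:74697557-74698378, had 171 and 170 normalized counts in WT and 37 and 140 in KO replicates 1 and 2. Only KO replicate 1 was far from WT. The log2 fold change was −1.23 (SE 0.59, limma adjusted p = 1), −2.17 without KO replicate 2 and −0.28 for KO replicate 2 against the WT mean. The WT mean was 171 ± 0.707 and the KO mean 88.5 ± 72.8 (SD, n = 2).

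The other HoxD genes showed no common direction. Hoxd8 and Hoxd4 had promoter sites with 113, 144, 162 and 122 and with 104, 101, 119 and 140 normalized counts. The Hoxd3 site, chr2:74740455-74740916, had 79 and 13 in the WT lines and 23 and 36 in the KO lines, so that its spread lay within WT. Hoxd1, the most anterior gene, had 46, 49, 17 and 47 normalized counts, with KO replicate 1 alone low.

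Around HoxD, the 72 sites within 1 Mb on either side had a median log2 fold change of −0.14, and the rest of chromosome 2 had 0.0032. By this median the flanks did not share the direction of the block from Hoxd10 to Hoxd13. The KO lines differed there, with median differences from the WT mean of −0.26 for KO replicate 1 and 0.037 for KO replicate 2. The Hat1 gene lies on the same chromosome, 3.23 Mb away.

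**Figure D3:**
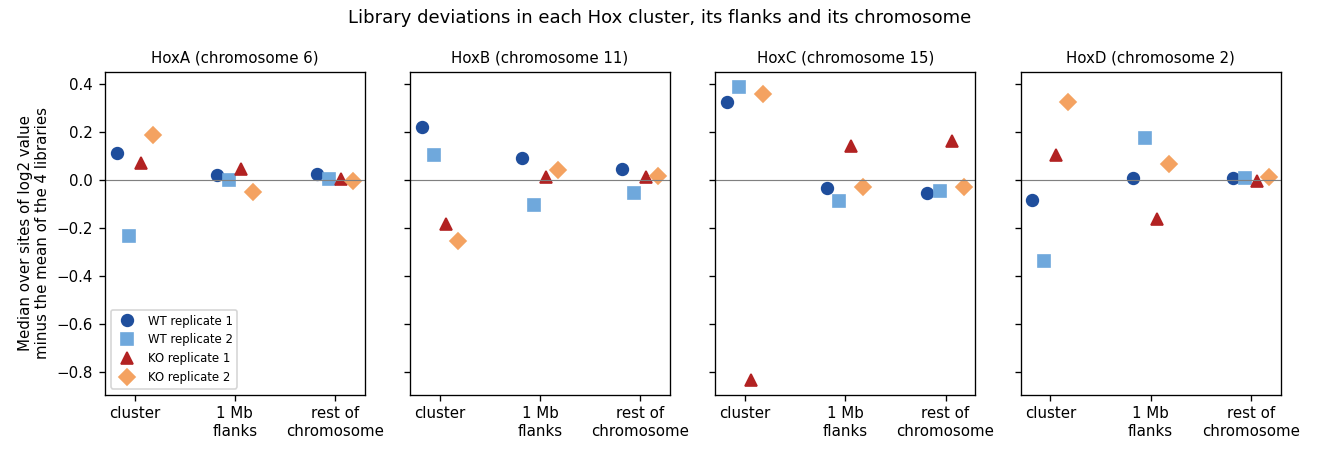
Median over sites of the log2 value minus the mean of the 4 libraries (vertical axis), for each Hox cluster, the 1 Mb on either side and the rest of its chromosome, with 1 point per library. The cluster points spread more widely than those of the flanks or chromosome, and KO replicate 1 in HoxC lies at −0.83, below every other point.

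HoxA also held a step, between Hoxa5 and the Hoxa6 region, a boundary again chosen after the values were seen. The 9 sites up to Hoxa5 had 133, 184, 88.0 and 140 normalized counts per kb in WT replicates 1 and 2 and KO replicates 1 and 2. The 14 sites from Hoxa6 to Hoxa13 had 299.97, 205, 323 and 322. The posterior sites were the more accessible in each library, by a ratio of 2.26 and 1.11 in WT and 3.68 and 2.31 in KO (exact permutation test, two-sided, p = 0.333, the smallest the design allows). The step was shallow in WT replicate 2 and steep in KO replicate 1.

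From Hoxa6 on, 13 of 14 sites had a log2 fold change above 0, with a median of 0.42, but KO was above WT without overlap at only 4. WT replicate 2 was the lowest library at all 14. Without WT replicate 2, 8 of the 14 sites were above 0 and the median was 0.095. The median over all 23 HoxA sites, 0.23, was −0.011 without WT replicate 2 and 0.41 without WT replicate 1. The direction of HoxA thus depended on WT replicate 2.

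The most accessible HoxA site lay at Hoxa7, which acts in the thoracic skeleton. This site, chr6:52221498-52222297, had 302, 217, 371 and 370 normalized counts, with both KO lines above both WT lines. Its log2 fold change was 0.53 (limma adjusted p = 1). A second Hoxa7 site, chr6:52217397-52217675, had 72, 53, 132 and 66 normalized counts, so that only KO replicate 1 was high. Its log2 fold change was 0.59 (SE 0.42, limma adjusted p = 1).

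Hoxa9 and Hoxa10 belong to different paralog groups, and Hoxa10 acts in the lumbar region and in the uterus. The Hoxa9 promoter site had 233, 145, 227 and 272 normalized counts, and WT replicate 2 alone was low. The highest log2 fold change of the well-covered HoxA sites was 0.75 (SE 0.47, limma adjusted p = 1) at a short Hoxa10 site, chr6:52233152-52233390, with 61, 32, 55 and 102 normalized counts. The genotypes overlapped there. Of the 4 other Hoxa10 sites by gene, none had an unadjusted p under 0.05.

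Hoxa11 and Hoxa13, which act in the forearm and the digits, closed the cluster. Hoxa11 had 247, 134, 226 and 266 normalized counts at its TSS site. The Hoxa13 TSS site, chr6:52260694-52260893, had 34, 26, 52 and 51, with KO above WT and a log2 fold change of 0.77. Its mean value was below the median of all sites.

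In the anterior part of HoxA the values pointed the other way. Of the 9 sites up to Hoxa5, 7 had a log2 fold change below 0, with a median of −0.69, and KO was below WT without overlap at 5. KO replicate 1 was the lowest library at 8 of 9. Without KO replicate 1 the median was −0.12, with 5 sites below 0, and without KO replicate 2 it was −1.19.

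Hoxa5, which acts in the lung and the cervical and upper thoracic skeleton, had the lowest log2 fold change of all Hox sites. Its site, chr6:52203658-52204720, spans the promoter partly printed above and had 88 and 234 normalized counts in WT and 44 and 56 in KO. The KO lines were close together and below both WT lines, which differed widely from each other. The log2 fold change was −1.51 (SE 0.49, limma adjusted p = 1), and −2.21 without WT replicate 1. Means were 161 ± 103 in WT and 50 ± 8.49 in KO (SD, n = 2).

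Hoxa3, needed for the thymus and parathyroid, has a long annotated body, and 11 sites fell under its name, several of them shared with its neighbours. The site at chr6:52172438-52173028, inside the gene but 10827 bp from its nearest TSS and within 1 kb of the start of another transcript, had 128, 164, 63 and 126 normalized counts. There both KO values lay below both WT values, with KO replicate 2 close to WT (log2 fold change −0.69, SE 0.39, limma adjusted p = 1). The site with the CTCF core letters printed above, chr6:52177040-52177503, had 52, 77, 22 and 33 normalized counts and a log2 fold change of −1.20 (limma adjusted p = 1). Hoxa4 had 82, 74, 90 and 98 at its promoter, with both KO lines above WT, and 58, 57, 47 and 53 at an intronic site, with both below. Hoxa2, which patterns the hindbrain and the pharyngeal arches, had 1 site with 109, 124, 105 and 158 and a log2 fold change of 0.15.

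**Figure D4:**
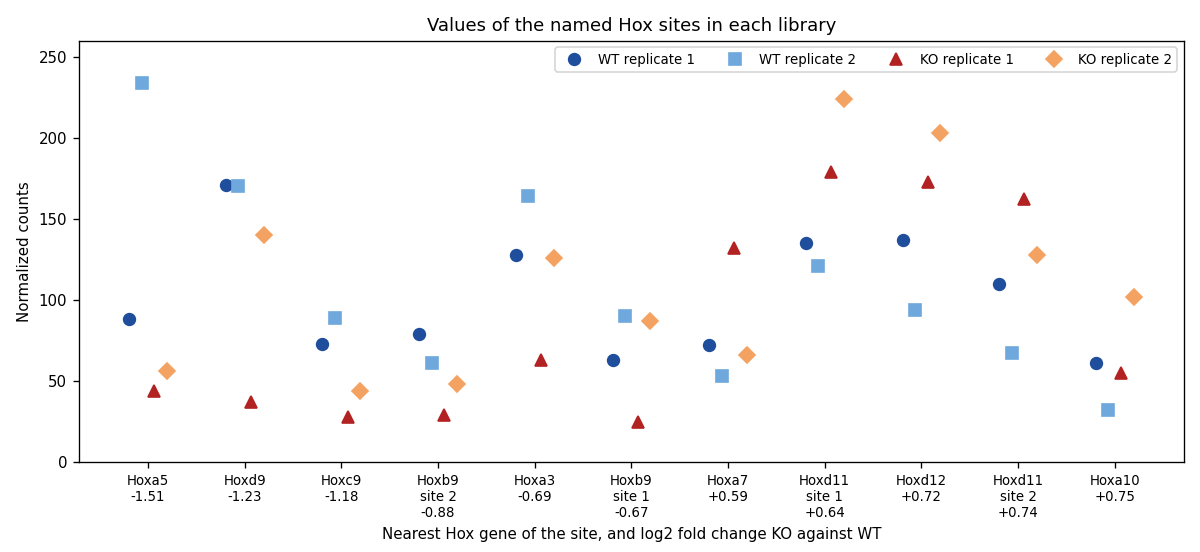
Normalized counts of 11 Hox sites in each of the 4 libraries, ordered by log2 fold change (KO against WT, under each gene name), for the sites with the lowest, the highest or the most widely spread values among well-covered sites. WT and KO points are apart at Hoxc9, Hoxd11 and Hoxd12, whereas at Hoxd9 and Hoxb9 site 1 a single KO line lies away from the other libraries.

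HoxB sites tended to lower values in both KO lines. Of 16 sites, 13 had a log2 fold change below 0, with a median of −0.30, and 11 to 13 did so with any 1 library left out. Summed over the cluster, values were 853 and 802 normalized counts in WT and 734 and 701 in KO. The 2 genotypes did not overlap in these sums. No HoxB site had an unadjusted p under 0.05. Over the 16 sites, the median differences of KO replicates 1 and 2 from the WT mean were −0.41 and −0.40. The KO lines nevertheless diverged along the cluster. Sums in WT replicates 1 and 2 and KO replicates 1 and 2 were 192, 182, 294 and 133 for groups 1 to 3. They were 418, 379, 338 and 354 for groups 4 to 8 and 243, 241, 102 and 214 for groups 9 to 13. The KO lines differed by at least 1 on the log2 scale at 5 of 16 sites (31.25%, against 20.8% of all sites). Among well-covered HoxB sites the median log2 fold change was −0.57. The 165 sites within 1 Mb of the cluster had a median of 0.012.

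Hoxb9, the last gene of the contiguous part of HoxB, acts in the rib cage and mammary gland. Its promoter site, chr11:96271018-96271383, had 63, 90, 25 and 87 normalized counts, with KO replicate 1 alone low. Its log2 fold change was −0.67 (SE 0.60), and 0.21 without KO replicate 1. A second site just inside the gene, chr11:96271695-96272166, had 79, 61, 29 and 48 normalized counts, and there both KO lines were below both WT lines. The log2 fold change was −0.88 (SE 0.39, limma adjusted p = 1).

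In the central part of HoxB, the genotypes were apart at a site of Hoxb8 and at one of Hoxb6. The Hoxb8 exonic site, which Hoxb7 shares, had 86, 64, 51 and 48 normalized counts. An intronic site of Hoxb6 had 74, 83, 49 and 57. In both, KO lay below WT, with log2 fold changes of −0.58 and −0.56. Hoxb5 and Hoxb4 had TSS sites whose genotypes overlapped, with 42, 45, 26 and 51 and with 41, 36, 43 and 30 normalized counts.

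The anterior genes Hoxb3 and Hoxb2, which act in the hindbrain, went in different directions. Hoxb3 had 76, 54, 52 and 48 normalized counts at its TSS site. Hoxb2 had a site with 75, 72, 186 and 65, chr11:96352527-96353517, where KO replicate 1 alone was high. Far from the other genes, Hoxb13, which acts at the tail end and in the prostate, had 40, 25, 20 and 23 normalized counts at its TSS, so that even its highest library was below the median of all sites.

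HoxC was the cluster in which the KO lines differed most from each other. Its summed values were 816 and 853 normalized counts in WT, 404 in KO replicate 1 and 858 in KO replicate 2. KO replicate 1 alone was low, and KO replicate 2 was level with WT. KO replicate 1 was the lowest library at 15 of 18 sites and below both WT lines at 16. Its median difference from the WT mean was −1.14 on the log2 scale, against 0.11 for KO replicate 2. The KO lines differed by at least 1 on that scale at 11 of 18 HoxC sites (61.1%), against 20.8% of all sites, and the WT lines at 1.

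A genotype difference in HoxC therefore rested on 1 line. Although 17 of 18 sites had a log2 fold change below 0, this count was 6 without KO replicate 1. The median of −0.57 became 0.11 when KO replicate 1 was left out and −1.14 when KO replicate 2 was. Outside the cluster KO replicate 1 was not low. It deviated from the mean of the 4 libraries by a median of −0.83 at HoxC sites, by 0.14 at the 139 sites within 1 Mb on either side and by 0.16 over the rest of chromosome 15.

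At 6 HoxC sites both KO lines lay below both WT lines, and at the sites of Hoxc9 and Hoxc4 described next the unadjusted p was under 0.05. Hoxc9, which acts in thoracic motor neurons and vertebrae, had an exonic site, chr15:102981591-102982175, with 73, 89, 28 and 44 normalized counts. Its log2 fold change was −1.18 (SE 0.37, limma adjusted p = 1), with means of 81 and 36. Hoxc4, the anterior end of the cluster, had 35, 53, 14 and 15 normalized counts at its promoter, chr15:103034591-103035021, and a log2 fold change of −1.51 (SE 0.45, limma adjusted p = 1). Its value was below the median of all sites, so counting error weighs more there. At Hoxc8, which acts in brachial motor neurons, the TSS site had 31, 27, 12 and 17 normalized counts. A Hoxc5 promoter site had 88, 97, 61 and 53, an intronic site of Hoxc6 had 43, 39, 19 and 35, and an intronic site of Hoxc4 had 47, 56, 16 and 41.

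At several other HoxC sites KO replicate 2 was near or above WT. Hoxc6 had TSS-site values of 34, 45, 14 and 65 and intronic values of 48, 65, 20 and 59 at the site printed above. Hoxc10 had 36, 34, 12 and 39 and Hoxc11 had 59, 21, 19 and 50. The widest gap of any Hox site between the KO lines was at Hoxc13, which acts in hair and nails, with 29, 18, 5 and 72 normalized counts. The Hoxc12 site overlapped between genotypes as well, with 53, 36, 25 and 60. A long annotated transcript of Hoxc5 spans several other genes, so 12 sites were counted under its name.

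**Figure D5:**
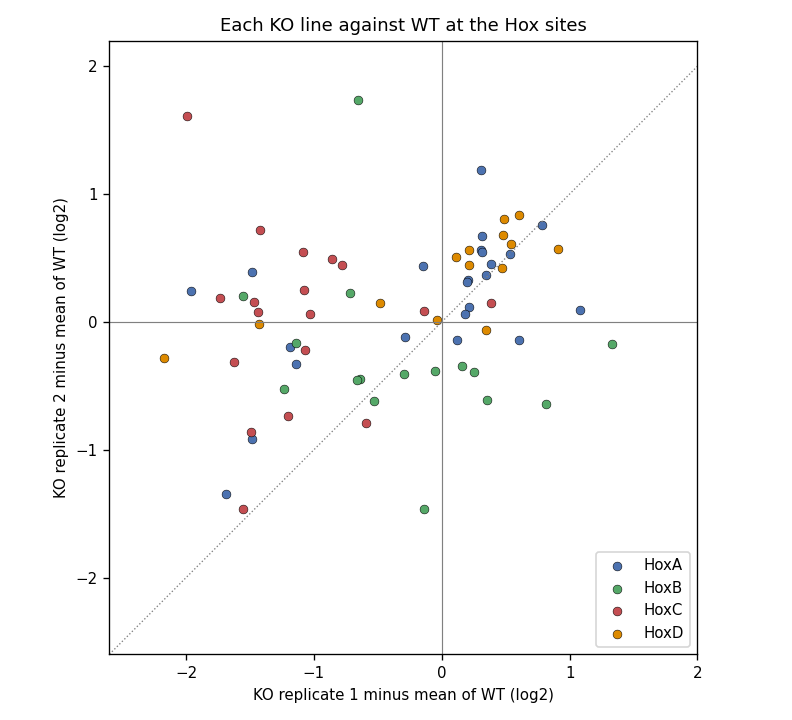
Difference of each KO line from the mean of the WT lines at the 71 Hox sites (log2 scale), KO replicate 1 on the horizontal and KO replicate 2 on the vertical axis, coloured by cluster, with the dotted line marking equal differences. HoxC sites lie to the left with KO replicate 2 on both sides of 0, and 9 of the 14 HoxD sites lie in the upper right, above WT in both KO lines.

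The KO lines differed from each other at more Hox sites than the WT lines did. The range over the 4 libraries had a median of 1.07 on the log2 scale at Hox sites, against 0.79 over all sites, and of 1.03 at Hox promoter sites, against 0.49 at all promoter sites, which have higher values. The KO lines differed by at least 1 at 20 Hox sites (28.2%, against 20.8% of all sites). This was not shared by the clusters. It held for 11 of 18 HoxC and 5 of 16 HoxB sites, but for only 2 of 23 HoxA and 2 of 14 HoxD sites. In HoxA and HoxD the share was below that of all sites. The WT lines differed by at least 1 at 4 Hox sites (5.63%, against 13.5%). Across the 71 sites, which share the same libraries and are not independent, Spearman correlations between libraries were 0.716 to 0.853, with the lowest between WT replicate 2 and KO replicate 1.

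Paralog groups were compared across clusters by the nearest TSS. The 14 sites of groups 1 to 3 had 162, 144, 146 and 144 normalized counts per kb in WT replicates 1 and 2 and KO replicates 1 and 2. Among them were 2 sites between Hoxa6 and Hoxa7, assigned to group 3 by a Hoxa3 TSS there. The HoxA split above counts both with its posterior part. Their means over the libraries were 230 and 268 per kb, against 149 for the 14 sites, so the anterior level depends on this assignment. The 29 sites of groups 4 to 8 had 135, 144, 122 and 139. The 28 sites of groups 9 to 13 had 235, 181, 223 and 274. Posterior groups were the most accessible in each library, through HoxA and HoxD, since posterior HoxB and HoxC sites had means of 125 and 94.2 against 282 and 266. Median log2 fold changes were −0.45, −0.25 and 0.33 for anterior, central and posterior groups, and the genotypes overlapped in the sums of all 3.

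By paralog group, the sums did not overlap between genotypes for groups 3, 5 and 8, where KO was lower, and for groups 2, 7, 11, 12 and 13, where KO was higher (exact permutation test, two-sided, p = 0.333 for each, the smallest possible). This is also the share of label arrangements that give no overlap. The nearest WT and KO sums were 751 and 749 in group 3, 230 and 234 in group 2, and 355 and 351 in group 8. Group 2 held the Hoxb2 site with 186 in KO replicate 1 alone, and group 7 held only 2 sites. Group 5 had sums of 325, 468, 225 and 298 normalized counts, with WT replicate 2 well above the rest. Group 11 had 707, 463, 755 and 826 and group 13 had 765, 611, 854 and 941, with WT replicate 2 the lowest. Group 9 overlapped, with 680, 620, 374 and 647. Within group 9 the clusters disagreed, with HoxA sites at 379, 236, 369 and 442 per kb and the Hoxd9 site at 208, 207, 45.0 and 170.

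Summed over all sites of each gene, none of the 37 Hox genes was called, against 0.301% of 16288 protein-coding genes, all lower in KO. At an unadjusted limma p under 0.05 there were 3 lower genes, Hoxa5, Hoxc4 and Hoxc9, and 3 higher genes, Hoxd11, Hoxd12 and Hoxd13. Of all genes, 3.85% passed, 1.85% lower and 2% higher. No adjusted p was under 0.05. Hoxd11, Hoxd12 and Hoxd13 had log2 fold changes of 0.67, 0.66 and 0.49, but Hoxd12 shares a site with each of the other two. Hoxc4 had a log2 fold change of −0.81. Without KO replicate 2, log2 fold changes were −1.34 for Hoxb9, −1.12 for Hoxc4, −1.03 for Hoxc6 and −2.17 for Hoxd9. With all 4 libraries they were −0.74, −0.81, −0.47 and −1.23. Hoxa5 had −1.51 with all 4 libraries and −2.21 without WT replicate 1.

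Of the 38 genes, 30 had a site within 1 kb of a TSS. These TSS sites had a median of 157 normalized counts per kb. The genes without one were Hoxa2, Hoxa6, Hoxb1, Hoxb6, Hoxb7, Hoxb8, Hoxc9 and Hoxc12.

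Genes that act with or beside Hox genes had a median log2 fold change near 0. The list held cofactors that bind DNA together with Hox proteins (Pbx2, Pbx3, Pbx4, Meis1, Meis2, Meis3, Pknox1 and Pknox2), the Hox regulators Cdx1, Cdx2 and Cdx4, and the homeobox genes Evx1 and Evx2 beside HoxA and HoxD. Of these 13 genes, 11 had sites, none was called and none had an unadjusted p under 0.05. Log2 fold changes of the list lay between −0.13 (Meis3) and 0.30 (Evx2), with 0.24, 0.27 and 0.27 for Pbx4, Meis2 and Pknox1. The median of the 11 genes was 0.013, against 0.043 over all genes. At their TSS sites they had a median of 365 normalized counts per kb, above the 157 of the Hox genes. Evx2, which adjoins Hoxd13, had summed values of 493, 363, 526 and 513 normalized counts, with both KO lines above both WT lines and a log2 fold change of 0.30. Cdx2 and Cdx4 had no site.

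To define domains of reduced accessibility in primary MEFs, the study averaged fold changes over 25 neighbouring sites, with a mean under −0.58 as the limit. Regions close to each other were then joined. Here the same limit was set on the limma fold changes of the imMEF lines, and no regions were joined. The share of all sites under the limit is not given here, so counts of Hox sites have no background. At Hox sites the 25-site mean ran from −0.52, in HoxC, to 0.26, in HoxA, and 0 of 71 sites were under the limit. Without KO replicate 2, some Hox sites were under it, and neighbouring sites share most of their 25-site windows.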

How the data were processed

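ATAC-Seq libraries from 4 imMEF lines, 2 WT and 2 KO, were analysed from 1 deposited table. Per the submitters' processing notes, the authors aligned reads to mm10 with BWA 0.7.12, called peaks with MACS2 2.1.0 and used DESeq2. The values used are a score: the authors scaled the count of each merged site with one factor for each library and rounded to whole numbers. Read filters, the Tn5 offset, the treatment of reads mapping to several places and whether reads or fragments were counted were not given in the sources used here. The authors' own fold changes and p-values in the table were not used. Since the values are scaled and rounded, no count model was fitted.

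Sites were assigned with GENCODE M21. Site and gene values were tested with limma 3.58.1 (R 4.3.3, intensity trend) on log2(value + 1) over all 82325 sites or 16288 genes, which understates changes of low sites. Summed values were compared by exact permutation tests. Samples were grouped by genotype label. The gene list held 38 Hox genes, and 1 gene of the cofactor list is not reported here. The genes, lists and splits of clusters were chosen with earlier results of these data known, and the splits of HoxA and HoxD after their values were seen. Sites given with full statistics were any called Hox site, the 5 lowest and 5 highest log2 fold changes, and the 5 widest ranges over libraries, all among Hox sites whose mean reached the all-site median of 52; other sites were named to account for each gene. Normalized totals were 8008069 to 8516263 per library, and the precision is limited by 2 lines per genotype. The scripts were tested on simulated data. Alternatives were the pseudocount, low-value filter, scaling, call rule, intensity trend, site rule and each library left out. Python 3.11.15, pandas 2.3.3 and scipy 1.17.1 were used.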

Additional observations from a re-analysis of the deposited data

How the results depend on the processing

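No Hox site or gene was called higher in KO under any alternative run. Sites called lower in KO numbered 0 in the main analysis, 1 without the intensity trend (Hoxc4) and 0 to 1 with 1 library left out: Hoxa5 without WT replicate 1 and Hoxd9 without KO replicate 2. Genes called lower ranged from 0 to 4 with 1 library left out, the highest without KO replicate 2. With higher-signal sites alone, the median log2 fold change was 0.1989 for Hox sites (main value −0.1666) and −0.5674 for HoxB (main value −0.30). With 1 library left out, the medians ranged from −0.1611 to 0.1198 for Hox sites, −0.0106 to 0.4114 for HoxA, −1.1426 to 0.1141 for HoxC and 0.2789 to 0.5554 for HoxD. Pseudocount, scaling and the site rule kept the sign of every cluster's median. One Hoxb9 site, at −0.67, ranged from −1.5535 to 0.2055, turning positive without KO replicate 1. The Hoxd9 and Hoxa5 sites became more negative with the libraries named above left out, and 74 other values of named sites kept their direction. Chosen after seeing the data, counts with 1 library left out ranged from 8 to 14 of 14 sites above 0 in HoxA from Hoxa6 on, from 6 to 18 of 18 HoxC sites below 0, and from 0 to 16 Hox sites with a 25-site mean under the limit. The cause of these shifts was not tested. No paired analysis was possible because numbering here only follows the order of accession. The names of the lines of WT replicate 1 and KO replicate 2 share a number whose meaning is not stated, and the other lines share none, so fewer than 2 pairs could be formed. Where 1 library was left out, the lone line was assumed to vary like the others. Depth limits low sites most, in KO replicate 2 above all.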
